A study of Mus musculus with 16 samples.

Results

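A set of 10 genes that mark natural killer (NK) cells and T cells was followed through 16 RNA sequencing libraries of the mouse: Klrb1c, Klrd1, Klrk1, Ncr1, Gzma, Prf1, Cd3e, Cd3g, Il2rb and Il7r. They were taken by name, and all 10 were found among the 49585 gene identifiers of the count tables. The libraries came from sorted neutrophils of the bones of C57BL/6 mice aged 8 to 12 weeks, with 4 libraries in each of 4 groups. P2KO libraries came from mice in which Vav:cre acted on floxed PHD2 (gene Egln1), the oxygen sensor that marks hypoxia-inducible factors for degradation, and their controls are P2WT. P2H2KO libraries came from mice in which Vav:cre acted on floxed PHD2 and floxed HIF2 (gene Epas1) together, and their controls are P2H2WT. Both control groups are labelled wild type, and whether they carried Vav:cre or floxed alleles is not given in the sources used here. Vav:cre is active throughout the blood system, NK and T cells included, and not in neutrophils alone. The study concerns HIF2α and the movement of neutrophils, and the comparisons here ask how transcripts of lymphocytes in the same libraries differ between genotypes.

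NK cells are lymphocytes that kill infected or transformed cells without an antigen receptor of their own. They decide by the balance of activating and inhibitory receptors, many of which are C-type lectins encoded side by side in the NK gene complex of mouse chromosome 6, and they kill by releasing perforin, which opens the target membrane, and granzymes, proteases that enter through it. T cells share this killing machinery in part, but recognise antigen through a receptor that signals through the CD3 chains. Klrb1c encodes the NK1.1 antigen, and Klrd1 encodes CD94, the partner chain of the NKG2 receptors encoded by Klrc genes. Klrk1 encodes the activating receptor NKG2D, and Ncr1 encodes the natural cytotoxicity receptor NKp46. Gzma encodes granzyme A and Prf1 perforin. Il2rb encodes the β chain of the receptors for interleukin 2 and interleukin 15, on which NK cells depend, and Il7r the α chain of the interleukin 7 receptor, which T cells and early B cells need. The bone marrow, where neutrophils form, is also where NK cells and B cells develop.

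The libraries held between 23450746 and 28601284 counts. Levels are given in CPM, the usual unit of counts relative to library size, after TMM scaling, the method of edgeR that sets libraries on a common scale. In each library the members together took between 57.1 and 119 CPM of the raw total, so each member rested on few reads. The lowest count of a member in a library was 26 and the highest 1419. The summed level of 14 neutrophil genes ranged from 34800 to 89000 CPM, and all 14 had counts in every library. Transcripts of other cells were present too, with 24100 to 49600 CPM for 9 erythroid genes and 271 to 919 CPM for 15 B lineage genes. Counts were found in every library for 30 of 33 further NK cell markers and for 33 of 34 further T cell markers. The share of cells of each kind was not measured. The targeted genes did not separate the genotypes. Egln1 ranged from 43.2 to 58.4 CPM in P2KO and from 45.9 to 51.3 CPM in P2WT, and from 49.2 to 58.8 CPM in P2H2KO and 47.9 to 54.6 CPM in P2H2WT. Epas1 ranged from 3.42 to 8.39 CPM in P2H2KO and from 2.55 to 4.97 CPM in P2H2WT. These are counts over whole genes, which need not show a deleted exon, so every direction below rests on the labels. Nothing in the labels says that libraries came from separate mice, so p-values measure the spread between libraries.

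A pair of control libraries of the P2H2 line, P2H2WT replicates 13 and 18, stood apart from the other 14 libraries in the receptor genes of chromosome 6, a region examined after its values were seen. Klra4, a receptor of the Ly49 family, had 1 count in each of these libraries and between 17 and 66 in the others. Klra8 had 2 and 0 counts against 7 to 39, and Klra6 had 0 in both against 1 to 18. In contrast, Klra17, a member of the same family found on myeloid and plasmacytoid dendritic cells, had 703 and 867 counts against 130 to 538 elsewhere, and Klra3 had 60 and 54 against 9 to 37. Of 20 receptor genes shown, 6 lay below all 14 other libraries in both and 3 lay above, compared with 0.547% and 0.291% of all genes. Among the members this touched Klrd1, with 61 and 67 counts against 80 to 170 elsewhere. The counts of Klrb1c (129 and 69 against 65 to 153) and Klrk1 lay within the range of the others. In CPM, however, P2H2WT replicate 18 was the lowest of all 16 libraries for Klrb1c, at 2.79. All libraries carry the same strain label. Ly49 genes are near copies of each other, so their counts are uncertain in every library, and the cause of the pattern was not tested. For the members, each comparison that uses these libraries is given with and without them, as the median or for single genes. Counts over marker lists, summed levels and relations across libraries are given with them only.

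**Figure D1:**
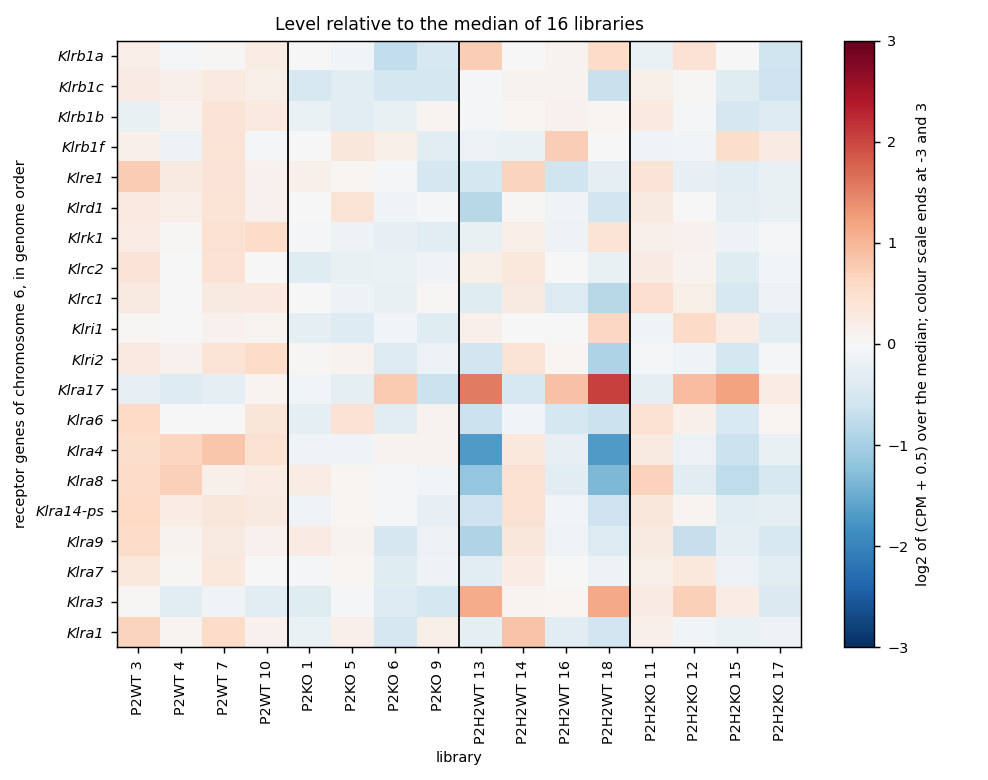
Level of 20 receptor genes of chromosome 6 (rows, in genome order) in 16 libraries (columns, by group), as log2 of CPM + 0.5 over the median of all libraries, with red above and blue below the median. P2H2WT replicates 13 and 18 are blue at Klra6, Klra4, Klra8 and Klra14-ps and red at Klra17 and Klra3.

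Relative to gene length the members spanned a wide range of levels. Gzma was at 7.44 and Il7r at 7.12 CPM per kilobase of exon on average over 16 libraries, and these did not differ beyond their spread, since the mean difference was 0.315 with an SD of 2.60 over libraries. Il2rb followed at 4.99 CPM per kilobase and Klrd1 at 3.35, with Il2rb above Klrd1 in 15 of 16 libraries. The receptors Ncr1 and Klrb1c, at 1.88 and 1.48 CPM per kilobase, were within their spread of each other, as were Prf1 at 1.18 and Klrk1 at 1.01. The CD3 chains were lowest, with Cd3g at 0.705 and Cd3e at 0.531 CPM per kilobase, and Cd3g was above Cd3e in 16 of 16 libraries. All other neighbours in this order differed on average by more than the SD of their difference. The order depends on the annotation, because the length is the union of all annotated exons, 7183 bases for Klrk1 and 2584 for Prf1. Before division by length Klrk1 was the higher of these, at 7.25 against 3.04 CPM. Which isoforms were expressed was not measured. Summed, the 6 NK cell members (Klrb1c, Klrd1, Klrk1, Ncr1, Gzma and Prf1) were at 20.3 to 38.5 CPM and the pair of Cd3 genes at 2.77 to 6.35 CPM over the 16 libraries.

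In P2KO, 5 members were lower in every library than in any P2WT library, namely Klrb1c, Klrk1, Gzma, Prf1 and Il2rb. None passed the threshold over all genes in edgeR's quasi-likelihood test, in which 6 of 13734 genes did (0.0437%), but 4 of these 5 passed with DESeq2, where 23 of 13728 genes did (0.168%). All 10 members had a negative log2 fold change, as did 42.2% of all genes, and their median was -0.54 against 0.020 over all genes. The 5 members without overlap compare with 1.39% of all genes that lay lower without overlap, and the same 5 had an unadjusted p under 0.05, as did 3.49% of all genes in either direction. In bulk libraries fewer cells of a type and less RNA per cell cannot be told apart.

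Among the receptors the clearest separation was in Klrb1c (ENSMUSG00000030325, chromosome 6, 128778485 to 128789215, minus strand; coordinates of members are those of GENCODE M21 on GRCm38). It was at 5.75, 5.30, 5.93 and 5.44 CPM in P2WT replicates 3, 4, 7 and 10 and at 3.24, 3.66, 3.16 and 3.11 CPM in P2KO replicates 1, 5, 6 and 9. Both groups were tight and lay apart, and the spread within P2WT (5.10% of the mean) was no larger than counting error alone would give (8.27%). Its log2 fold change was -0.76 with an SE of 0.10 (edgeR adjusted p 0.0688), the 8th smallest p of the table, and the DESeq2 adjusted p was 4.63e-05. Exons of Gm44511 overlap it, but that gene had 0 counts in all libraries.

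Klrk1 (ENSMUSG00000030149, chromosome 6, 129610323 to 129623864, minus strand) was at 8.12, 6.997, 9.68 and 10.2 CPM in P2WT and at 6.51, 6.15, 5.69 and 5.45 CPM in P2KO. The groups were close to touching, with P2WT replicate 4 just above P2KO replicate 1. The log2 fold change of Klrk1 was -0.55 with an SE of 0.13 (adjusted p 1 by edgeR and 0.140 by DESeq2). The other receptors overlapped between the groups. Klrd1 (ENSMUSG00000030165, chromosome 6, 129591782 to 129598775, plus strand) was at 5.23 ± 0.469 CPM (SD, n = 4) in P2WT and 4.52 ± 0.921 CPM in P2KO, and P2KO replicate 5, at 5.87 CPM, was the highest of the 8 libraries. Ncr1 (ENSMUSG00000062524, chromosome 7, 4337724 to 4345164, plus strand) was at 3.16 ± 0.888 CPM in P2WT and 2.17 ± 0.662 CPM in P2KO. Its log2 fold change was -0.53 with an SE of 0.26, close to that of Klrk1 but with a larger error.

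Both killing molecules lay apart between the groups. Gzma (ENSMUSG00000023132, chromosome 13, 113093825 to 113100981, minus strand) was at 10.6, 8.33, 10.04 and 10.06 CPM in P2WT replicates 3, 4, 7 and 10 and at 5.78, 6.35, 6.05 and 4.42 CPM in P2KO replicates 1, 5, 6 and 9. Every P2WT library was thus above every P2KO library. The log2 fold change of Gzma was -0.78 with an SE of 0.13 (adjusted p 0.210 by edgeR and 0.000199 by DESeq2). Prf1 (ENSMUSG00000037202, chromosome 10, 61297833 to 61304680, plus strand) was at 4.17, 3.20, 3.71 and 3.57 CPM in P2WT and at 2.50, 2.003, 1.54 and 1.73 CPM in P2KO. This was the largest difference among the members in this comparison, at a log2 fold change of -0.90 with an SE of 0.17 (adjusted p 0.458 by edgeR and 0.00520 by DESeq2), and it rested on 39 to 111 counts per library.

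Of the cytokine receptor chains, Il2rb lay apart between the groups and Il7r overlapped. Il2rb (ENSMUSG00000068227, chromosome 15, 78479256 to 78495271, minus strand) was at 27.4, 21.8, 25.9 and 24.6 CPM in P2WT and at 16, 19.2, 14.3 and 17.2 CPM in P2KO. The groups did not overlap, and the log2 fold change was -0.57 with an SE of 0.10 (adjusted p 0.296 by edgeR and 0.000947 by DESeq2). With 362 to 729 counts per library Il2rb had the deepest counts of the 5 members without overlap. Il7r (ENSMUSG00000003882, chromosome 15, 9505788 to 9530176, minus strand) was at 44.4, 35.8, 36.0 and 36.6 CPM in P2WT and at 25.98, 33.4, 29.8 and 54.5 CPM in P2KO. A single library, P2KO replicate 9, was above all others, and without it the log2 fold change of Il7r went from -0.08 to -0.35 (edgeR adjusted p of 0.999 or more in every fit that left out 1 library).

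The CD3 chains Cd3e and Cd3g overlapped between the groups. Cd3e (ENSMUSG00000032093, chromosome 9, 44998740 to 45009627, minus strand) was at 1.65, 2.10, 2.45 and 2.02 CPM in P2WT and at 1.69, 3.004, 1.03 and 1.65 CPM in P2KO. Cd3g (ENSMUSG00000002033, chromosome 9, 44969572 to 44980431, minus strand) was at 2.74, 1.82, 2.41 and 2.52 CPM in P2WT and at 1.77, 3.35, 1.74 and 1.61 CPM in P2KO. In both genes P2KO replicate 5 was the highest of the 8 libraries, and their log2 fold changes were -0.14 (SE 0.30) and -0.15 (SE 0.26). Without that library they were -0.48 and -0.47, with edgeR adjusted p of 0.925 or more in every fit that left out 1 library. Cd3g had an unadjusted p under 0.05 in 1 of these 8 fits. So at this depth neither Cd3e nor Cd3g passed the threshold, which does not show that they were unchanged. A log2 fold change as large as that of Klrk1 lies within 2 SE of the values of both genes with all 8 libraries. The summed NK cell members were at 31.7 to 38.5 CPM in P2WT and 20.3 to 26.5 CPM in P2KO without overlap, whereas the summed Cd3 genes were at 3.92 to 4.86 and 2.77 to 6.35 CPM, with P2KO replicate 5 above all P2WT libraries and the other 3 below. The ratio of the NK cell sum to the Cd3 sum was 7.85 to 8.75 in P2WT and 4.17 to 7.93 in P2KO, so the ranges of the ratio met.

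**Figure D2:**
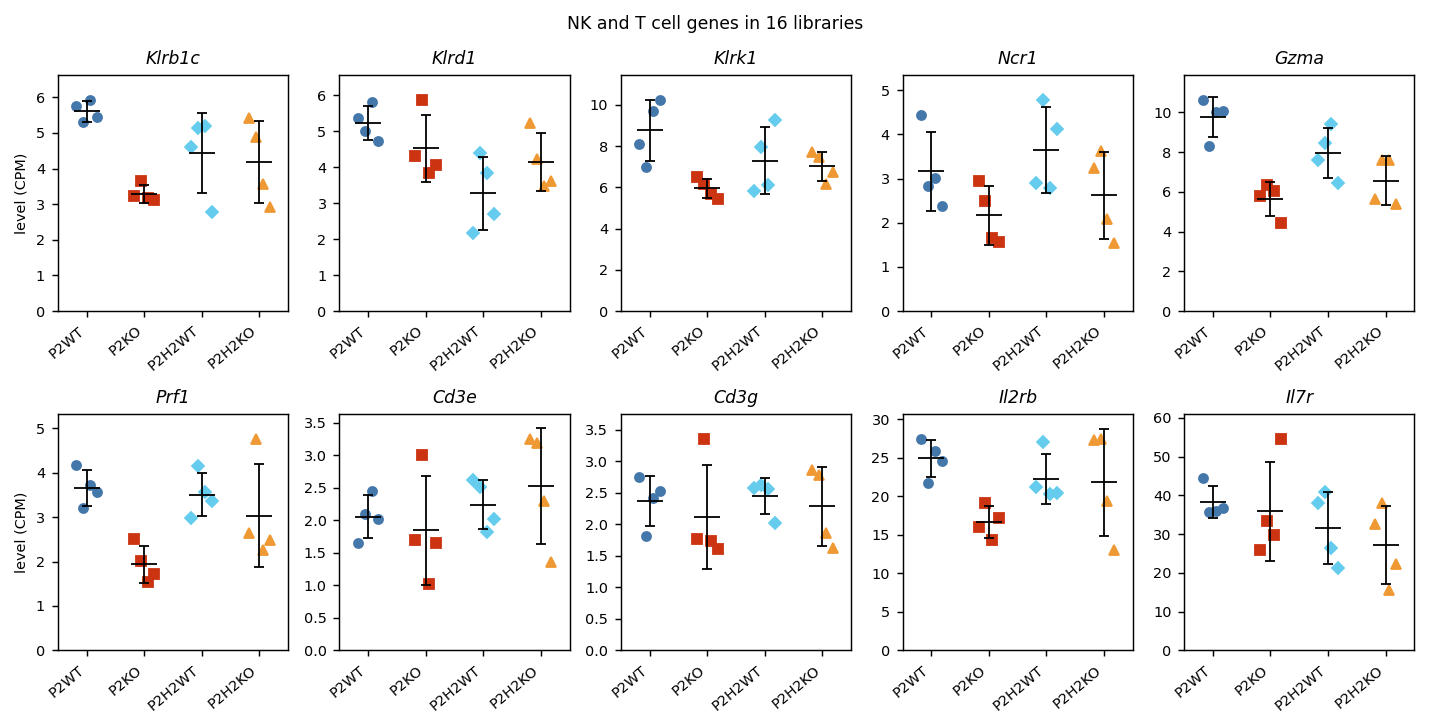
Level in CPM of the 10 members in each library, by group. Points are libraries (4 per group) and black marks show the mean and SD. In Klrb1c, Klrk1, Gzma, Prf1 and Il2rb the P2KO points lie below all P2WT points, and in no panel do P2H2KO and P2H2WT lie apart.

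The stretches just upstream of 4 of these 5 genes are shown because the genes lay lower together. They are the 250 bases before the transcription start in the RefSeq table of promoters (build GRCm38.p6), which matched 8 of the 10 members and has no entry for Klrd1 and Il2rb. The sequences are written 5′ to 3′ on the strand of the gene, and capitals mark matches to any of 4 motifs searched on both strands: ACGTG, the core of the hypoxia response element, TGTGGT, a core bound by RUNX factors, AGGTGTG, an element of T-box factors, and CCGGAA, a site of ETS factors.
Klrb1c, chr6:128788642-128788891, minus strand: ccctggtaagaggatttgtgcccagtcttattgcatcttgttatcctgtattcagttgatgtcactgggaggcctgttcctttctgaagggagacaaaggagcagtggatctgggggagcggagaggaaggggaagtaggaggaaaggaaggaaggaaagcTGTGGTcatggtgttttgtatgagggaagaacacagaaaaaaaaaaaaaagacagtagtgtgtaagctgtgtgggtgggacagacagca
Klrk1, chr6:129623865-129624114, minus strand: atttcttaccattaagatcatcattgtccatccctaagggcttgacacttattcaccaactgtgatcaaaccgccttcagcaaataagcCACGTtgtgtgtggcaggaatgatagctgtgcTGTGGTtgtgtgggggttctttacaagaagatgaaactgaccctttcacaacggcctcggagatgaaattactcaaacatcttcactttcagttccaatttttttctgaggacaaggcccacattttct
Gzma, chr13:113100982-113101231, minus strand: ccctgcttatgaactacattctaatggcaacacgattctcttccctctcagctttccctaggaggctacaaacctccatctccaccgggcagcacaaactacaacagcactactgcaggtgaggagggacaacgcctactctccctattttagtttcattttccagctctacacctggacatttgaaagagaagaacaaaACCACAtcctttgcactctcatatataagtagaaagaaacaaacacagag
Prf1, chr10:61297586-61297835, plus strand: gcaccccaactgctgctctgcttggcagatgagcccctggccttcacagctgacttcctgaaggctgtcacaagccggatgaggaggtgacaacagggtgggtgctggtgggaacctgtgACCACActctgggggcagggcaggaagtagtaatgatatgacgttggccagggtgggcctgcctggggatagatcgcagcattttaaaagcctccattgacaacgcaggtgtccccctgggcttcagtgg

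The RUNX core was present 1 time in each of these 4 windows, as TGTGGT in Klrb1c and Klrk1 and as its reverse complement ACCACA in Gzma and Prf1. It was also in the window of Ncr1, so 5 of the 8 members in the table held it, and the CD3 genes and Il7r did not. Over 32851 promoter windows of the same length 14.05% held it. The hypoxia core, which 16.6% of all windows held, was in those of Klrk1 (as its reverse complement CACGT) and Cd3e among the 8, and the T-box element (5.105% of windows) and the ETS site (12.03%) were in none. By GENCODE M21 the windows of Klrk1 and Gzma overlap no transcript. That of Klrb1c lies within a longer Klrb1c transcript and within Gm44511, mostly in their introns, and 3 bases of the Prf1 window are transcribed in that annotation. A match is a run of letters and not evidence of binding, and 8 genes are too few to compare with the share over all windows.

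Other genes of the same cells were described through lists of markers. Between P2KO and P2WT 29 further NK cell markers were tested. Of these, 24 had a log2 fold change below 0 (42.2% of all genes) and 5 above, and none passed the threshold. Of these markers 8 had an unadjusted p under 0.05, all on the lower side (3.49% of all genes in either direction). Their median was -0.27, smaller than that of the 10 members. The 3 most abundant of this list are Tyrobp, an adaptor that neutrophils and monocytes share, Il18rap, a chain of the interleukin 18 receptor, and Ncam1, at log2 fold changes of -0.16, 0.01 and 0.06. Of genes chosen after their values were seen, Tbx21, the T-box factor that directs NK cell maturation, was at -0.74 (SE 0.23), Klrc2, a partner of CD94, at -0.77 (SE 0.25), and Klra4 at -0.81 (SE 0.17), with edgeR adjusted p of 1, 1 and 0.691. These 3 were the lowest of the list, and Klrc2 rested on 10 to 25 counts per library. Eomes, a factor of NK cells related to Tbx21, was at -0.26 (SE 0.17). At the other end, Styk1 and Cd244a were the highest of the 5 markers above 0, at 0.32 (SE 0.42) and 0.19 (SE 0.19), and Klrb1f was at -0.03 (SE 0.16).

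Of 31 further T cell markers 23 lay below 0 (42.2% of all genes), and the median was -0.18. Of these 23 markers 3 had an unadjusted p under 0.05 (3.49% of all genes in either direction). The most abundant were Fyb, an adaptor also used by myeloid cells, Cd4 and Ubash3a, at log2 fold changes of -0.02, -0.18 and 0.04. Of 11 tested cytotoxic granule genes 10 lay below 0 with a median of -0.12, and the abundant ones, Srgn, Ctsc and Rab27a, which neutrophils also use for their granules, were at -0.12, -0.09 and 0.00. Ccl5, a chemokine of killer cells named after its values were seen, was at -0.60 (SE 0.14, edgeR adjusted p 0.967). The 11 cytokine receptor and signalling genes had a median of -0.01, with Jak1, Stat5b and Crlf2 at 0.03, -0.01 and -0.12, and no gene of this list had an unadjusted p under 0.05. Of 5 tested ligands of NK receptors 2 lay below 0, H2-T23 at -0.17 and Cd48 at -0.16, whereas Clec2d, a ligand of receptors of the Klrb1 family, was at 0.30 (SE 0.17).

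Markers of another cell type shared the direction. All 13 monocyte and macrophage markers had a negative log2 fold change in P2KO against P2WT (42.2% of all genes), with a median of -0.29. Of these markers 4 of 13 had an unadjusted p under 0.05 (3.49% of all genes in either direction), and none passed the threshold. Their summed level was 2390 to 3120 CPM in P2KO and 3100 to 3810 CPM in P2WT, so the ranges met, and every marker of the list had counts in all 16 libraries. F13a1, Ly6c2 and Ccr2, the most abundant, were at -0.19, -0.25 and -0.05. The neutrophil sum (34800 to 78800 and 44600 to 67100 CPM), the erythroid sum (24100 to 43700 and 30300 to 42000 CPM) and the B lineage sum (409 to 919 and 465 to 874 CPM) overlapped between P2KO and P2WT, and the medians of these lists were -0.01, 0.07 and 0.01. Innate lymphoid, plasmacytoid dendritic, basophil with mast and eosinophil, and endothelial markers had medians of -0.09, -0.02, -0.11 and 0.42, with no gene of these lists at an unadjusted p under 0.05. Whether the content of other cells has a part in the lower NK cell transcripts of P2KO was not tested.

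In the P2H2 line no member separated P2H2KO from P2H2WT. None passed the threshold, which 10 of 13435 genes did (0.0744%), none had an unadjusted p under 0.05 on either side (2.63% of all genes), and none lay apart without overlap (0.811% of all genes on the lower and 0.901% on the higher side). DESeq2 called 42 genes (0.319%) and no member either. A log2 fold change below 0 was found for 8 of the 10 members, as for 49.5% of all genes, and the median was -0.09 against 0.00 over all genes. Without P2H2WT replicates 13 and 18 the median was -0.25, still with no member past the threshold, and the number of genes called was 1. The median ranged from -0.21 (without P2H2WT replicate 18) to -0.000179 (without P2H2KO replicate 17) when single libraries were left out.

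Klrb1c was at 4.62, 5.14, 5.19 and 2.79 CPM in P2H2WT replicates 13, 14, 16 and 18 and at 5.41, 4.88, 3.56 and 2.93 CPM in P2H2KO replicates 11, 12, 15 and 17. Both groups spread over nearly the same range, and the log2 fold change was -0.08 (SE 0.25). Without P2H2WT replicates 13 and 18 it was -0.31 (SE 0.265). The spread within P2H2WT was 25.4% of the mean, against 9.31% for counting error alone. The low library there was replicate 18, of the pair that stood apart at the Ly49 genes. Within P2H2KO the spread of Klrb1c was 27.3% against 9.88%, also beyond counting. Gzma was at 7.59, 8.45, 9.40 and 6.42 CPM in P2H2WT and at 5.63, 7.62, 7.61 and 5.37 CPM in P2H2KO. Its log2 fold change was -0.28 (SE 0.17) with an edgeR adjusted p of 1, and it was -0.45 (SE 0.19) without P2H2WT replicates 13 and 18.

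Prf1 was at 2.97, 4.14, 3.56 and 3.35 CPM in P2H2WT and at 2.64, 4.76, 2.26 and 2.48 CPM in P2H2KO. A single library, P2H2KO replicate 12, was the highest of the 8, and the other 3 lay below all controls. The log2 fold change of Prf1 was -0.21 (SE 0.25), and -0.51 without that library. Klrk1 was at 7.29 ± 1.61 CPM (SD, n = 4) in P2H2WT and 7.02 ± 0.719 CPM in P2H2KO, and Ncr1 at 3.65 ± 0.968 and 2.62 ± 0.979 CPM, with log2 fold changes of -0.05 (SE 0.16) and -0.47 (SE 0.29). Klrd1, at 2.18, 4.38, 3.83 and 2.71 CPM in P2H2WT and 5.24, 4.23, 3.48 and 3.61 CPM in P2H2KO, had the opposite sign, with 0.34 (SE 0.24), and it was at 0.00 (SE 0.22) without P2H2WT replicates 13 and 18. That positive value thus rested on the pair of libraries that stood apart at the Ly49 genes. Klrd1 was among the receptor genes in which both lay below all other libraries, so leaving them out had to lower its value.

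Il2rb was at 21.2, 27.1, 20.3 and 20.4 CPM in P2H2WT and at 27.3, 27.4, 19.4 and 13.1 CPM in P2H2KO. The deficient libraries spread wider than the controls on both sides, and the log2 fold change was -0.03 (SE 0.22). Cd3e, Cd3g and Il7r were at 0.17 (SE 0.27), -0.10 (SE 0.22) and -0.22 (SE 0.30). P2H2KO replicate 17 was the lowest of the 8 libraries of the line in Cd3e, Cd3g, Il2rb, Ncr1 and Gzma, and replicate 15 the lowest in Il7r and Prf1. The summed NK cell members were at 26.1 to 34.9 CPM in P2H2WT and 22.6 to 32.6 CPM in P2H2KO, and the summed Cd3 genes at 4.04 to 5.19 and 2.98 to 6.10 CPM. Of 30 further NK cell markers tested 17 lay below 0 and 13 above, with none at an unadjusted p under 0.05 and a median of -0.03. Of 30 T cell markers 16 lay below 0, with 1 at an unadjusted p under 0.05 on the higher side (1.62% of all genes). The monocyte and macrophage markers had a median of -0.12 with 9 of 13 below 0. On the lower side 6 of them had an unadjusted p under 0.05, as did 1.01% of all genes. These were C1qa, C1qb, C1qc, Mrc1, Vcam1 and Adgre1. Their list's sum, 2630 to 4790 CPM in P2H2KO and 2850 to 4560 CPM in P2H2WT, overlapped. Its most abundant genes, F13a1, Ly6c2 and Ccr2, lay above 0, at 0.03, 0.05 and 0.11, so the sum says little about those 6.

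**Figure D3:**
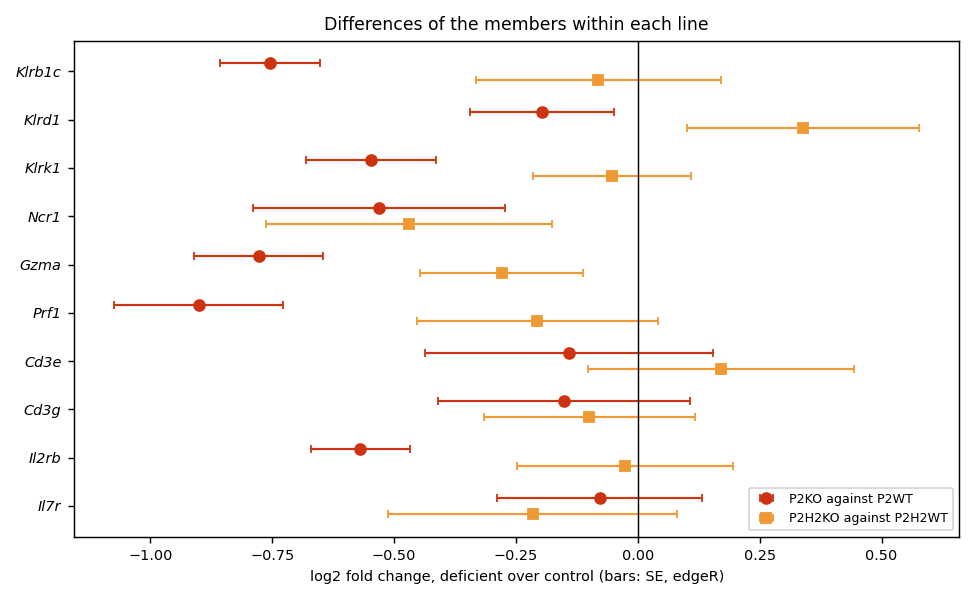
Log2 fold change of each member with its SE (edgeR) in P2KO against P2WT (circles) and in P2H2KO against P2H2WT (squares). The circles of Klrb1c, Klrk1, Gzma, Prf1 and Il2rb lie between -0.90 and -0.55, and the squares of the same genes between -0.28 and -0.03.

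The difference between the lines was tested itself, as the effect in the P2 line minus the effect in the P2H2 line in 1 fit of all 16 libraries. It passed the threshold for 0 of 14080 genes (0.00%), with 212 genes at an unadjusted p under 0.05 and 0 genes called by DESeq2. So the deficiency of PHD2 alone and the deficiency of both PHD2 and HIF2 were not shown to differ for any member. The contrast lay below 0 for 9 of 10 members, against 49.6% of all genes, and 4 members had an unadjusted p under 0.05 on the lower side, as did 0.717% of all genes. These were Klrb1c with a contrast of -0.69 (SE 0.28, p 0.0261), Gzma with -0.51 (SE 0.22, p 0.0321), Klrk1 with -0.50 (SE 0.22, p 0.0343) and Prf1 with -0.70 (SE 0.31, p 0.0381), all in edgeR's test with an adjusted p of 0.999. Without P2H2WT replicates 13 and 18, Klrk1 alone had such a p, at 0.0233, and the contrast of Klrb1c was -0.47 (SE 0.26). When the 16 libraries were left out in turn, between 0 and 6 members had an unadjusted p under 0.05, with 0 without P2H2KO replicate 12. The median contrast over the members was -0.51, against 0.00 over all genes, and it ranged from -0.60 to -0.41 in those fits and was -0.36 without P2H2WT replicates 13 and 18.

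Both lines were also pooled, with the line as a term, which uses the same libraries again. Of 14080 genes 23 passed the threshold (0.163%), 2 of them lower, and no member did in edgeR's test. On the lower side 5 members had an unadjusted p under 0.05, against 1.92% of all genes: Gzma at a log2 fold change of -0.54 (SE 0.12, adjusted p 0.148), Prf1 at -0.55 (SE 0.17, adjusted p 0.622), and Klrb1c, Ncr1 and Klrk1 at -0.42, -0.51 and -0.31 with adjusted p of 1. DESeq2 called Gzma (adjusted p 0.0110) and 0.483% of all genes. Prf1 was called by edgeR when P2H2KO replicate 12 was left out, at -0.72 (adjusted p 0.0298), and in no other fit. Without P2H2WT replicates 13 and 18, Il2rb joined the members with an unadjusted p under 0.05, at -0.40 (SE 0.16, p 0.0244), which made 6, and Klrb1c was at -0.58 (SE 0.135, adjusted p 0.336) and Gzma at -0.65 (SE 0.12, adjusted p 0.0764), with no member past edgeR's threshold. Cd3e, Cd3g and Il7r were at 0.01, -0.13 and -0.15, with adjusted p of 1.

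The control groups of the lines were compared as a gauge of how far the lines differ apart from genotype, and line and table cannot be told apart here. In P2WT against P2H2WT 166 of 13593 genes passed the threshold (1.22%) and no member did. Klrd1 alone of the members had an unadjusted p under 0.05, as did 11.4% of all genes. Klrd1 was at 5.37, 5.02, 5.81 and 4.72 CPM in P2WT, above all P2H2WT libraries, and its log2 fold change was 0.67 with an SE of 0.21 (edgeR adjusted p 0.217). Klrb1c also lay higher without overlap, as did 5.18% of all genes. Without P2H2WT replicates 13 and 18 Klrd1 was at 0.34 (SE 0.15) and Klrb1c at 0.11 (SE 0.13). The members' median was 0.21 between the controls and -0.03 when line was tested over all 16 libraries with genotype as a term. The median between the controls was 0.0912 without P2H2WT replicates 13 and 18, and it ranged from 0.11 (without P2H2WT replicate 18) to 0.29 (without P2H2WT replicate 14) when single libraries were left out.

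Across the 8 libraries of a line, relations between members differed in strength. These relations were computed within each line on log2(CPM + 0.5), with exact permutation p-values adjusted by Benjamini-Hochberg over 18 relations. Where a gene or sum lay apart between P2WT and P2KO the libraries form separate clusters of 4, and no r over the 8 libraries is given. This leaves out the relations of the NK cell sum, Il2rb, Gzma and Prf1 in the P2 line, which are still counted among the 18, and relations within groups of 4 were not tested. Among the P2H2 libraries Il2rb went with the Cd3 sum (r 0.946, exact permutation p 0.000967, adjusted 0.00871, rho 0.881, exact p 0.00724) and kept r 0.836 without the 2 libraries farthest from the median. Il2rb also went with the NK cell sum there (r 0.859, adjusted exact permutation p 0.0265), with a rho of 0.738 (adjusted 0.103) and r 0.656 without the 2 farthest libraries. Cd3e and Cd3g went together in the P2H2 line (r 0.791, adjusted exact permutation p 0.0402) but less so without the 2 farthest libraries (r 0.475), and in the P2 line their r was 0.667 (adjusted exact permutation p 0.113). Other relations of members in the P2H2 line were positive but did not pass the threshold. The NK cell sum had r 0.702 with the Cd3 sum and 0.63 with Il7r (adjusted exact permutation p 0.0911 and 0.144). Gzma and Prf1 had r 0.527 (adjusted exact permutation p 0.216). The NK cell sum and the monocyte and macrophage sum had r -0.458 in the P2H2 line (adjusted exact permutation p 0.281).

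Il7r went with the B lineage genes across libraries. Its r with the sum of 15 B lineage genes was 0.922 in the P2H2 line (adjusted exact permutation p 0.00871, rho 0.905, adjusted exact p 0.0326) and 0.870 in the P2 line (adjusted exact permutation p 0.0229, rho 0.762, adjusted exact p 0.103), and 0.821 and 0.642 without the 2 farthest libraries. With the Cd3 sum its r was 0.0437 in the P2 line and 0.703 in the P2H2 line, neither past the threshold (adjusted exact permutation p 0.921 and 0.0911). The library with the highest Il7r, P2KO replicate 9 at 54.5 CPM, also had the highest B lineage sum, 919 CPM, and the one with the lowest, P2H2KO replicate 15 at 15.7 CPM, had the lowest sum, 271 CPM. In P2H2KO against P2H2WT all 14 tested B lineage markers lay below 0, with a median of -0.34 and none at an unadjusted p under 0.05, beside the -0.22 of Il7r. Which cells the Il7r transcripts came from was not measured.

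**Figure D4:**
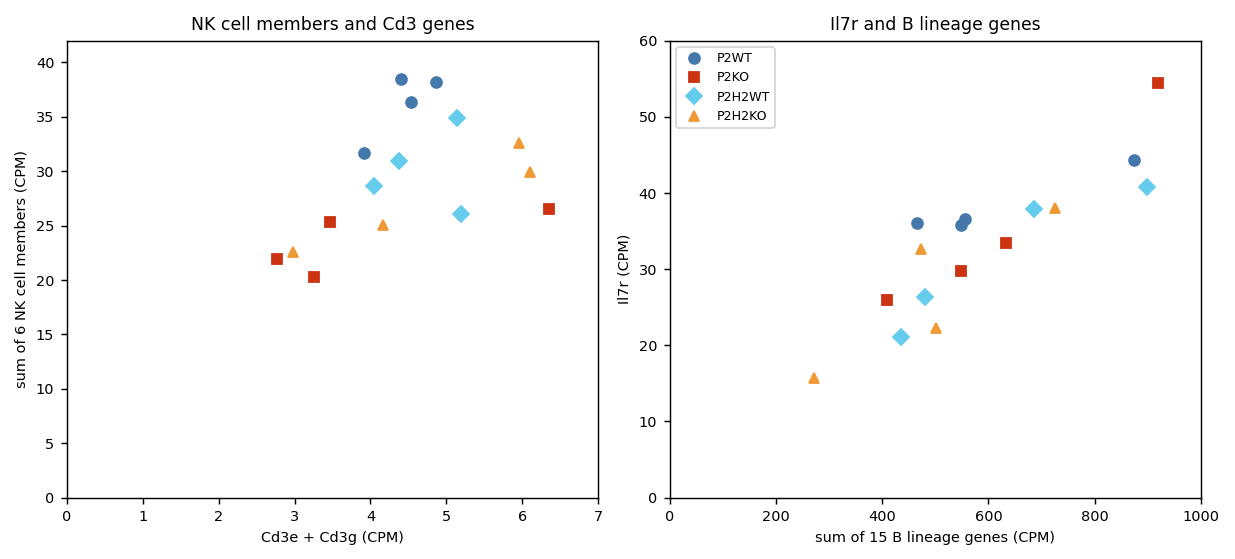
Left, the summed CPM of the 6 NK cell members against the summed CPM of Cd3e and Cd3g in each library. Right, Il7r in CPM against the summed CPM of 15 B lineage genes. Each point is a library, coloured by group, and all axes start at 0. In the left plot P2WT lies at 31.7 to 38.5 CPM above P2KO at 20.3 to 26.5 CPM, with 3 P2KO libraries below and 1 above the range of the Cd3 sum in P2WT (3.92 to 4.86 CPM), and in the right plot Il7r is higher where the B lineage sum is higher.

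The genes whose pattern over the 16 libraries was most like that of the members, once each group's mean was removed, were sought among 11361 genes of at least 1 CPM and are given with no test. For the sum of the 6 NK cell members they were Klra7, an inhibitory Ly49 receptor (r 0.898), Fam92a (0.870), Xcl1, a chemokine released by NK cells (0.861), Ubap2l (0.846) and Ptpn2, a phosphatase (0.835). For the Cd3 sum they were Trac, the constant segment of the T cell receptor α chain (r 0.901), Setdb1 (0.897), Ctsw, a protease of killer cells (0.862), Tcf7, a T cell transcription factor (0.856), and Ccl5 (0.850). For Il2rb they were Polr3e (r 0.901), Polrmt (0.895), Zfp318, Sart3 and Dhx37, none of which is in the marker lists used here. For Il7r they were Tmem108 (r 0.959), Arntl (0.957), Lef1, which is in the T cell list (0.956), Aff3 (0.953) and Blk, a kinase of B cells (0.951). Libraries also share depth and cell content, so such likeness describes these 16 libraries and no more. Between the members themselves r on the same scale ranged widely, from 0.777 for Cd3e and Il2rb to -0.124 for Gzma and Il7r. The next highest were Il2rb with Cd3g (0.748), Ncr1 (0.745) and Klrb1c (0.732), then the pair of Cd3 genes (0.731). Klrk1 had its highest r with Ncr1, at 0.455, and was at -0.113 with Klrb1c.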

How the data were processed

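The libraries were grouped by the labels, with 4 in each group and no replicate number shared between groups. The authors deposited 2 tables of raw read counts per Ensembl gene, 1 for each line, per the file headers. HTSeq and mm10 are named in the submitters' processing notes, with no version. Which aligner, gene annotation and strand setting were used is not given in the sources used here, so reads of near-identical receptor genes may have been assigned in different ways. Symbols, lengths and positions came from GENCODE M21, which matched 49326 of 49585 identifiers, and the other 259 held 0.00714% of counts.

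In edgeR 4.0.16, low genes were dropped with filterByExpr, libraries scaled with TMM and genes tested with the robust quasi-likelihood test in R 4.3.3. P values are two-sided, Benjamini-Hochberg adjustment ran over the whole table of tested genes, and 0.05 was the threshold. Each line was fitted on its 8 libraries, and the contrast and the pooled comparison on all 16. CPM come from the TMM-scaled sizes of all 16, and per kilobase values divide them by the union of exons. SE were computed from the F statistic. Alternatives were DESeq2 1.42.0, RLE or upper-quartile scaling, leaving genes unfiltered or asking 10 counts of each library, the m or f suffix of the titles (10 and 6 libraries) as a covariate, leaving out single libraries and, chosen after seeing the data, leaving out P2H2WT replicates 13 and 18. The scripts were tested on simulated data. Permutation tests used scipy 1.17.1.

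The members and the marker lists were chosen with earlier results of these data known, so the members' directions are no independent support. The rule for names took the members, the 3 most abundant genes of each marker list, of which those of the lists nearest to the members are given, and for 4 anchors the 5 genes of most like pattern. Genes outside this rule are said to be chosen after their values were seen. The lists counted here were NK cell, T cell, cytotoxic granule, cytokine receptor, NK receptor ligand, innate lymphoid, B lineage, plasmacytoid dendritic, monocyte and macrophage, basophil with mast and eosinophil, erythroid, endothelial and neutrophil.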

Additional observations from a re-analysis of the deposited data

Results flagged for a closer look

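In 5 of 48 groups of 4 libraries (the 10 members and both sums in the 4 groups) a single library lay far from the other 3, by a gap that exceeded the 95% critical value of Dixon's test. Chance gives this in about 1 of 20 groups. The libraries were P2H2KO replicate 12 for Prf1 (4.76 CPM), P2KO replicate 5 for Cd3g (3.35 CPM), P2H2WT replicate 18 for Cd3g (2.02 CPM), P2H2WT replicate 14 for Il2rb (27.1 CPM) and P2WT replicate 3 for Il7r (44.4 CPM). The value of Prf1 bears on its call over both lines, which held only without that library, and the value of Cd3g in P2KO on its log2 fold change, which was -0.15 with and -0.47 without that library.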

How the results depend on the processing

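Members called stayed at 0 in every comparison under RLE and upper-quartile factors, both filters and the suffix covariate. DESeq2 called 4 members in P2KO against P2WT and 1 over both lines, and it called 23, 42, 68 and 419 genes for P2, for P2H2, over both lines and between the controls, against 6, 10, 23 and 166 with edgeR. Without P2H2WT replicates 13 and 18 the genes called were 1 in the P2H2 line, 12 over both lines and 76 between the controls, and with at least 10 counts in every library 87 between the controls. Some small log2 fold changes changed sign. The suffix covariate gave 0.0178 for Klrk1 and 0.055 for Il2rb in the P2H2 line. Without P2H2WT replicates 13 and 18 Cd3g had a contrast of 0.0209, Klrd1 was at -0.12 and Cd3e at -0.00151 over both lines, and Prf1 at -0.0767 between the controls. With line as a term over 16 libraries Prf1 was at -0.28 and Il2rb at -0.11 between lines, and the members' median was -0.0345. The causes were not tested.

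Leaving out single libraries gave 4 to 6 genes called in the P2 line, 6 to 9 in the P2H2 line (6 without P2H2WT replicate 13), 18 to 44 over both lines (44 without P2KO replicate 9) and 76 to 167 between the controls (76 without P2WT replicate 10), with 0 to 1 members called over both lines and 0 elsewhere. In these fits the log2 fold change crossed 0 in the P2 line for Cd3e (-0.48 to 0.0567) and Il7r (-0.35 to 0.0488), in the P2H2 line for Klrb1c (-0.25 to 0.0567), Klrk1 (-0.15 to 0.0767), Cd3g (-0.23 to 0.0314) and Il2rb (-0.16 to 0.15), in the contrast for Ncr1 (-0.27 to 0.13), Cd3g (-0.38 to 0.0627) and Il7r (-0.15 to 0.32), over both lines for Klrd1 (-0.0329 to 0.11) and Cd3e (-0.12 to 0.11), and between the controls for Prf1 (-0.0115 to 0.15) and Cd3g (-0.14 to 0.0573). The members' median ran from -0.603 to -0.425 in the P2 line, from -0.21 to -0.000179 in the P2H2 line and from 0.11 to 0.29 between the controls. No paired analysis was possible because the groups share no replicate number. Counts of 26 to 284 for the members other than Il2rb and Il7r limit the precision, and the spread between libraries was larger than counting error in most groups.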
